A study of Mus musculus with 9 samples.

Results

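A set of 75 genes stayed near their lowest level in CD4 single-positive (SP4) thymocytes with a low or a medium Nur77 reporter signal and were higher in cells at the top of the reporter range. The 75 are from 41978 genes in the deposited table. A gene belonged to the set when it met 4 limits on means of log2(TPM + 1), where TPM is the deposited level, scaled for gene length and library depth. Its mean in the GFPhi group was at least 5 TPM, GFPhi exceeded GFPlo by at least 1 on the log2 scale, and the lowest GFPhi sample lay above the highest GFPlo sample. Last, the GFPmed mean had covered less than 0.2 of the way from the GFPlo mean to the GFPhi mean. This share of the way is called the position below, with 0 at the GFPlo mean and 1 at the GFPhi mean. Several symbol families (among them Nr4a, Egr, Tnf, Il, Cd, Ikzf and Rgs) and most unnamed loci were left out by the start or end of the symbol, and Rln3, Lad1 and Ctla4 by name. The measured levels thus chose the members, and their levels in the 3 groups are given as a description, without a test.

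All 9 samples were bulk RNA-seq libraries of semi-mature SP4 cells, live CD25- CD69+ CD24+ CD4+ CD8- by the labels, sorted from the thymus of mice on a C57BL/6 background that carried the Nur77-eGFP BAC transgene and were 3 to 10 weeks old, of both sexes. Each library came from 10000 sorted cells, taken from the lowest (GFPlo), a middle (GFPmed) or the highest (GFPhi) 10% of GFP fluorescence, with 3 biological replicates per group and no other treatment. The sources do not say which samples shared an animal, so the spread between replicates may in part be technical. The reporter is a transgene that reads out Nur77 induction as eGFP protein, so a sort gate is a window of accumulated fluorescence and not of a moment of signalling.

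Nur77, encoded by Nr4a1, is an orphan nuclear receptor that is induced within hours of T-cell receptor engagement, in step with the strength of the signal. In the thymus, SP4 cells test their receptors against self peptides in the medulla. Weak recognition lets a cell mature, and strong recognition can lead to deletion, to an unresponsive state called anergy, or to the regulatory T-cell lineage. Genes that respond to receptor signals differ in threshold: some climb with every increment of signal, and others respond at the upper end.

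The endogenous gene behind the reporter followed the gates. Nr4a1 measured 213, 187 and 251 TPM in GFPlo, 366, 351 and 406 in GFPmed and 767, 917 and 836 in GFPhi, where values are listed in the order of replicates 1, 2 and 3 here and below. The 3 groups did not overlap, and Nr4a1 had a position of 0.405 ± 0.0527 (SE from the fitted model), well above the limit of 0.2 that defines the set. Its paralogs Nr4a2 and Nr4a3 had positions of 0.730 and 0.373. Bcl2l11, which encodes the death effector BIM, lay at 0.601. The libraries held between 7465552 and 14943774 reads on genes, with a median of 9426281. The 12 marker genes of SP4 cells summed to 12199 to 15623 TPM in GFPlo, 13658 to 15123 in GFPmed and 12806 to 14408 in GFPhi, and limma called 0 of them higher or lower in GFPhi, with 1 higher at an unadjusted p under 0.05. Over all genes tested, 13.8% had an unadjusted p under 0.05 (limma) between GFPhi and GFPlo, counting both directions. In bulk libraries, fewer cells of one type and less RNA per cell cannot be told apart.

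Over the 75 members the median difference between GFPhi and GFPlo was 1.61 on the log2(TPM + 1) scale, with a range from 1.00 to 3.84, and 22 members reached 2. Over all 30693 genes tested it was -0.09. In linear TPM the median member was 3.63-fold higher in GFPhi than in GFPlo and 3.28-fold higher than in GFPmed, while GFPmed was 1.15-fold above GFPlo. By the rule, the GFPhi samples were clear of the GFPlo samples in all 75 members (8.26% of all genes tested). They were clear of the GFPmed samples too in 75 (7.11% of all genes, with 9.41% clear in the other direction). GFPmed was wholly above GFPlo in 14 members, against 5.55% of all genes and 4.7% with GFPmed wholly below, and in 16 members the GFPmed mean was at or below that of GFPlo. limma's moderated test, at a log2 change of at least 1 and an adjusted p of at most 0.05, called 63 members higher in GFPhi than in GFPlo (1.26% of all genes tested), 46 higher in GFPhi than in GFPmed (0.541% of all) and 0 higher or lower in GFPmed against GFPlo (0.0554% and 0.00326% of all). At an unadjusted p under 0.05, 5 of the 75 members differed between GFPmed and GFPlo, where 4.67% of all genes tested did, and limma-voom on reads also called 0. The rule used these same contrasts, so nothing is read from the member counts.

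The position separated the set from its neighbours by a limit, not by a gap, as the plot of position against difference shows. Of 286 genes with kept symbols that met the first 3 limits, 159 had a position from 0.2 to under 0.5 and 52 a position of 0.5 or more. The median position of the members was 0.103, and the median SE of one position was 0.129, so for 49 members the position plus 1 SE passed 0.2. Just inside the limit stood Mapre2 at 0.197, Ndrg3 at 0.195 and Cblb at 0.193. Just outside stood Gsto1 at 0.2003, Fam169b at 0.2009 and Zfyve16 at 0.202. Gsto1, a glutathione transferase, measured 2.17, 4.22 and 5.296 TPM in GFPlo, 5.59, 6.07 and 7.65 in GFPmed and 39.7, 47.1 and 44.4 in GFPhi. Fam169b measured 6.07, 6.27 and 6.73 TPM in GFPlo, 7.23, 7.46 and 7.76 in GFPmed and 13.9, 14.3 and 13.6 in GFPhi. Zfyve16, an endosomal adaptor protein, measured 9.55, 9.92 and 7.498 TPM in GFPlo, 10.2, 12.5 and 8.86 in GFPmed and 16.97, 20.4 and 19.5 in GFPhi. These 3 genes have the same form as the members beside them. On linear TPM, which gives less weight to small changes at low levels, the members' median position was 0.0593 and the highest was 0.143.

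**Figure D1:**
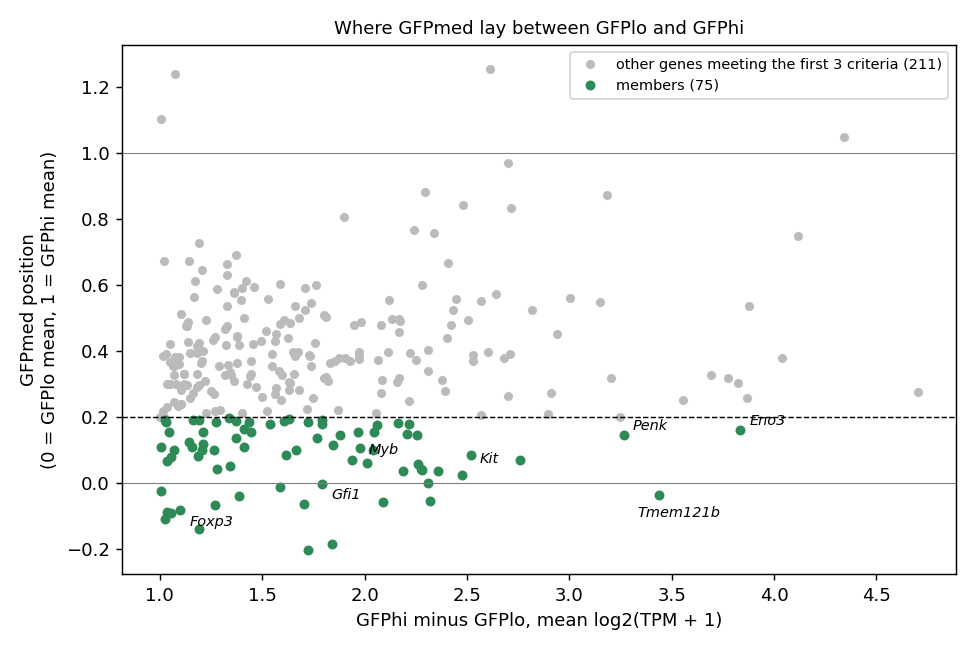
GFPmed position (vertical axis, 0 at the GFPlo mean and 1 at the GFPhi mean of log2(TPM + 1)) against the GFPhi minus GFPlo difference (horizontal axis, log2 units) for 286 genes that met the first 3 limits. The 75 members (green) fill the band under the dashed line at 0.2 down to -0.202, with no gap between them and the 211 other genes (grey).

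Promoter sequence was examined for the motifs of factors that act downstream of the T-cell receptor. RefSeq promoters (build GRCm38.p6, 250 bases before to 50 after each start) were found for 58 of the 75 members, 73 promoters in all, some of which share sequence because one gene has several starts. Each motif was searched on both strands. The Nur77 monomer site AAAGGTCA was present in 1 of the 73 (1.37%) and in 1.51% of all 32851 promoters. The AP-1 site TGANTCA was in 5 (6.85%) against 7.81% of all, and the NFAT core TGGAAA in 15 (20.5%) against 21.4%. The EGR site GCGNGGGCG was in 5 (6.85%) against 5.55% of all, and in 14.8% of the 176 promoters of genes with the same rise and a position of 0.2 or more. The cyclic AMP response element TGACGTCA was in 0 of the 73, against 1.79% of all, and its core TGACG, which the full site contains, in 10 (13.7%) against 20.8%. The RUNX letters TGTGGT were in 4 (5.48%) against 16.8% of all and 16.5% of the 176 promoters of genes with a position of 0.2 or more. The GC box GGGCGG, which overlaps some EGR matches, was in 45 (61.6%) against 35.7% of all and 59.1% of those 176. The MYB letters AACNGNC were in 38.4% against 32.8%, the E-box CACGTG in 5.48% against 7.15%, the kappaB motif in 65.8% against 50.8%, CCAAT in 32.9% against 37.4% and TATAAA in 12.3% against 13.6%. Those 176 promoters held the kappaB motif in 67.0%, so its excess over all promoters was not particular to the members. They held the core TGACG in 22.2%, the MYB letters in 35.2%, the E-box in 4.55%, CCAAT in 44.3% and TATAAA in 14.2%. The members' promoters had a median GC content of 60.3% against 52.7% for all promoters and 57.5% for the genes with a position of 0.2 or more.

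Promoters of 3 members are shown as the 250 bases before the start, 5′ to 3′ on the gene's strand: Eno3 because it had the largest step, Tgif1 because one of its 5 starts has the only Nur77 site, and P2rx7 because it holds both an AP-1 and an EGR match. Capitals mark some of the matches, with those of the kappaB and MYB motifs left in lower case. They are the inverse of CCAAT in Eno3, the Nur77 site and a GC box in Tgif1, and the AP-1 site, a GC box and an EGR match joined to a GC box on the reverse strand in P2rx7. A match describes the letters and not binding.
Eno3, chr11:70656926-70657175, plus strand: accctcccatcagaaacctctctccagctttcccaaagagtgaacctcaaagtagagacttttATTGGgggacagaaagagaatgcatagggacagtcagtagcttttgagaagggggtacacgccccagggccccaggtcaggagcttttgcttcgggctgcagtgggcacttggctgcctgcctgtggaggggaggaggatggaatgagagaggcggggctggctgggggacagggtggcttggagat
Tgif1, chr17:70849791-70850040, minus strand: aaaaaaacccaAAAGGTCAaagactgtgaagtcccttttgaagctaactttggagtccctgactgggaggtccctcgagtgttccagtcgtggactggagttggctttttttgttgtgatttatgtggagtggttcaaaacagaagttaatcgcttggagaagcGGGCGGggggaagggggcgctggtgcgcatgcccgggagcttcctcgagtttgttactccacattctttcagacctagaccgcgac
P2rx7, chr5:122643677-122643926, plus strand: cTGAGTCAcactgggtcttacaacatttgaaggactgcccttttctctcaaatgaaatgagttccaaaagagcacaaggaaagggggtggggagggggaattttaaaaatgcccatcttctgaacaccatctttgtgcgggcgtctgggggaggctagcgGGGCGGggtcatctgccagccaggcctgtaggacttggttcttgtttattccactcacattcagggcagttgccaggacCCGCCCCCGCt

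The set held 13 genes of metabolism and transport, and one of them, Eno3, had the largest difference of the whole set. Eno3 encodes beta-enolase, the muscle form of the glycolytic enzyme that makes phosphoenolpyruvate. It measured 10.8, 12.5 and 15.3 TPM in GFPlo, 24.6, 18.9 and 17.5 in GFPmed and 167, 238 and 187 in GFPhi. GFPhi averaged 197 ± 36.5 TPM (SD, n = 3) and GFPlo 12.9 ± 2.25, with no overlap among the 3 groups. Most of the step came between GFPmed and GFPhi, although the lowest GFPmed sample also exceeded the highest GFPlo sample. Slc45a3, a putative sugar transporter, measured 0.167, 0.134 and 0.219 TPM in GFPlo, 0.305, 0.705 and 0.0836 in GFPmed and 5.67, 6.79 and 8.68 in GFPhi. Pla2g4f, a cytosolic phospholipase A2, measured 7.75, 6.31 and 4.17 TPM in GFPlo, 7.05, 6.68 and 5.102 in GFPmed and 34.1, 39.4 and 39.2 in GFPhi. In both, GFPlo and GFPmed overlapped and the 3 GFPhi samples stood alone. Slc16a3, which encodes the lactate exporter MCT4, measured 3.59, 4.46 and 3.24 TPM in GFPlo, 3.85, 3.85 and 4.999 in GFPmed and 10.6, 18.7 and 12.4 in GFPhi, and the GFPhi samples differed among themselves by more than those of Pla2g4f.

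The other genes of the glycolytic pathway gave no call. In a list of 25 genes of glycolysis and lactate transport, 22 other genes were tested and 0 were called higher or lower in GFPhi than in GFPlo by limma (1.26% of all genes were called higher and 0.404% lower), with a median difference of -0.19. At an unadjusted p under 0.05, 0 of them were higher. Aldoa and Slc2a3 were lower in GFPhi by less than the fold limit of the call, with log2 differences of -0.73 (limma adjusted p = 0.00211) and -0.58 (0.00582). Among the other enolases the log2 difference was -0.21 for Eno1 (limma adjusted p = 0.542), 0.15 for Eno2 (adjusted p = 0.792) and -0.09 for Eno4 (adjusted p = 0.948). Per exonic length, Eno1 was the most abundant enolase at 323 ± 23.4 reads per kb of exon, scaled to library depth (exonic RPKM), in GFPlo and 283 ± 39.2 in GFPhi (SD, n = 3). On the same scale Eno3 went from 3.96 ± 0.677 to 61.2 ± 8.86, and Eno2 from 2.04 ± 0.381 to 2.28 ± 0.212. Eno1b is a near-identical copy of Eno1, so the split of reads between those 2 is uncertain.

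The remaining 9 metabolic members are given by their group means. Slc35d3, of the nucleotide sugar transporter family, averaged 0.707, 1.02 and 6.16 TPM in GFPlo, GFPmed and GFPhi. Lactb, a mitochondrial protein related to bacterial beta-lactamases, averaged 4.38, 4.91 and 19.7. Smox, which oxidises spermine, averaged 9.72, 11.8 and 26.8, and Fdx1, the mitochondrial electron carrier ferredoxin, 4.69, 5.32 and 14.1. In these 4 the GFPmed mean lay a little above that of GFPlo, and the GFPhi replicates of Slc35d3 were the least even, with 8.29 TPM in replicate 2 and 4.96 in replicate 1. Smpdl3a, a phosphodiesterase, averaged 2.62, 3.24 and 8.89 TPM in the same order. Decr1, of mitochondrial beta-oxidation, averaged 1.95, 2.24 and 5.44, and Hsdl2, a peroxisomal dehydrogenase-like protein, 11.4, 13.2 and 24.2. Ggta1, the enzyme that makes the alpha-galactose epitope, averaged 3.37, 3.095 and 7.93, with GFPmed below GFPlo. Slc28a2b, a nucleoside transporter copy whose reads may be shared with its paralog, averaged 1.78, 1.504 and 5.35.

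**Figure D2:**
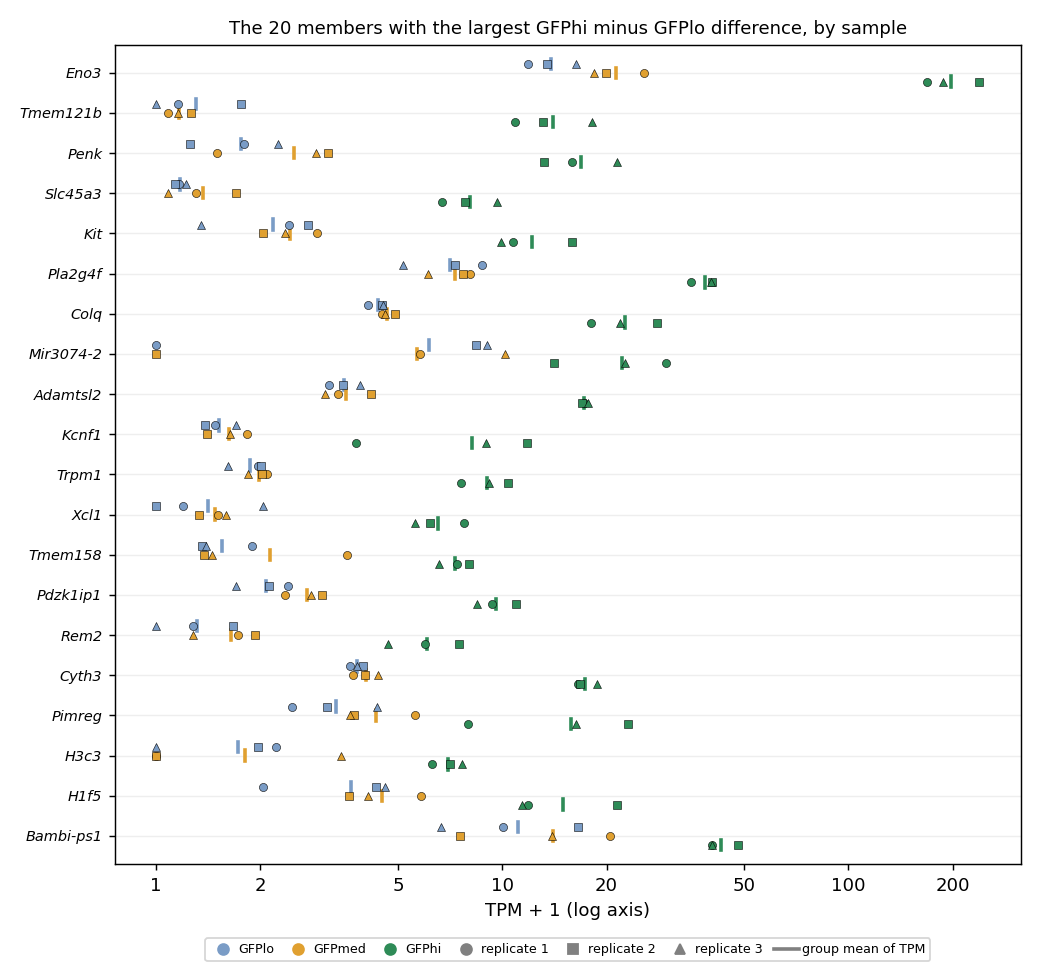
TPM + 1 (horizontal log axis) in each of the 9 samples for the 20 members with the largest GFPhi minus GFPlo difference, from 3.84 for Eno3 to 2.05 for Bambi-ps1. Colours mark GFPlo, GFPmed and GFPhi, symbols the replicates 1 to 3 and short bars the group means of TPM plus 1; in every row the green GFPhi points stand to the right of the others, and blue and orange mix in most rows.

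A group of 15 members are receptors, adhesion molecules or secreted proteins, and several came from near the limit of detection. Tmem121b, a transmembrane protein of little known function, measured 0.157, 0.756 and 0 TPM in GFPlo, 0.0817, 0.265 and 0.157 in GFPmed and 9.86, 12.1 and 17.1 in GFPhi. The GFPlo and GFPmed samples were all under 1 TPM. Penk, the precursor of the enkephalin opioid peptides, measured 0.792, 0.254 and 1.25 TPM in GFPlo, 0.495, 2.13 and 1.897 in GFPmed and 14.9, 12.2 and 20.5 in GFPhi. Kit, the receptor tyrosine kinase for stem cell factor that early thymic progenitors also use, measured 1.42, 1.75 and 0.3498 TPM in GFPlo, 1.92, 1.04 and 1.35 in GFPmed and 9.74, 14.9 and 8.89 in GFPhi. For both genes GFPlo and GFPmed overlapped, and the lowest GFPhi sample lay far above the highest of the others. Colq, which anchors acetylcholinesterase, measured 3.08, 3.49 and 3.52 TPM in GFPlo, 3.48, 3.88 and 3.57 in GFPmed and 17.1, 27.1 and 20.9 in GFPhi. Adamtsl2, a secreted glycoprotein of the extracellular matrix, measured 2.15, 2.46 and 2.88 TPM in GFPlo, 2.36, 3.17 and 2.07 in GFPmed and 16.2, 15.9 and 16.6 in GFPhi, with a GFPhi SD of 0.348 TPM (n = 3), the smallest relative to its mean among the 20 members with the largest differences.

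Xcl1 encodes lymphotactin, the chemokine that attracts XCR1-bearing dendritic cells, and in the medulla these cells present self antigen. Its values were 0.197, 0 and 1.03 TPM in GFPlo, 0.512, 0.332 and 0.589 in GFPmed and 6.73, 5.18 and 4.61 in GFPhi. Tmem158, a membrane protein first found in cells with active Ras, measured 0.893, 0.358 and 0.3903 TPM in GFPlo, 2.56, 0.376 and 0.446 in GFPmed and 6.39, 6.99 and 5.57 in GFPhi; its GFPmed replicate 1 stood above the other 5 low samples. Between 16 and 23 reads supported Tmem158 in a GFPhi sample, and between 30 and 55 supported Xcl1.

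An enzyme and a receptor that act on extracellular nucleotides were also in the set. Nt5e, or CD73, turns extracellular AMP into adenosine and marks regulatory and anergic T cells. It measured 1.14, 0.485 and 0.822 TPM in GFPlo, 0.699, 1.05 and 1.61 in GFPmed and 5.58, 4.76 and 6.13 in GFPhi. P2rx7, the ATP-gated channel, measured 6.43, 6.18 and 5.502 TPM in GFPlo, 8.16, 7.16 and 6.52 in GFPmed and 15.4, 19.2 and 18.7 in GFPhi. In P2rx7, unlike Nt5e, every GFPmed sample exceeded every GFPlo sample, by a small step. Of 4 other P2X receptors tested 0 were called, and of 3 other genes tested in the adenosine pathway 0 were called, with 0 and 1 higher at an unadjusted p under 0.05 (limma). Adora2a, the adenosine receptor of T cells, had a log2 difference of 0.52 (limma adjusted p = 0.31), and P2rx4 one of 0.24 (adjusted p = 0.401). Entpd1, which supplies AMP, averaged 0.741, 0.802 and 0.7903 TPM in GFPlo, GFPmed and GFPhi and did not pass the filter on low values.

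For Penk and Kit, genes of the same pathways were examined. In the list of opioid peptides and receptors, 3 of 9 other genes passed the filter and 0 were called by limma, with 0 higher at an unadjusted p under 0.05. Oprl1, the nociceptin receptor, had a log2 difference of -0.08 (limma adjusted p = 0.958). Kitl, the ligand of Kit, averaged 0.519, 0.474 and 0.4298 TPM in GFPlo, GFPmed and GFPhi and was not tested. Kit is also a marker of mast cells and progenitors. A list of 10 other such markers summed to 23.6 to 41.6 TPM in GFPlo, 28.5 to 36.5 in GFPmed and 21.3 to 38.9 in GFPhi, with 0 of 8 tested genes called by limma and 0 higher at an unadjusted p under 0.05. The ranges of these sums overlapped between the 3 groups. Cpa3 averaged 0.886, 0.634 and 1.16 TPM and Ms4a2 7.82, 6.88 and 5.83.

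Pdcd1, which encodes the inhibitory receptor PD-1, measured 19.2, 20.6 and 20.3 TPM in GFPlo, 22.1, 17.9 and 19.3 in GFPmed and 35.8, 42.1 and 46.2 in GFPhi. Lrrc32, or GARP, which holds latent TGF-beta on regulatory T cells, measured 5.84, 4.31 and 2.21 TPM in GFPlo, 4.07, 3.12 and 3.702 in GFPmed and 12.4, 9.71 and 10.4 in GFPhi. GFPlo and GFPmed were level for both. Pdcd1 stood at the edge of the set, with a log2 difference of 1.00. Of 7 other inhibitory receptors tested, 3 were called higher in GFPhi than in GFPlo: Ctla4 with a log2 difference of 2.72 (limma adjusted p = 0.000462), Cd200 with 2.20 (0.00024) and Cd5 with 1.61 (0.000188). Lag3, Havcr2 and Btla had differences of -0.11, -0.20 and -0.21 and were not called. At an unadjusted p under 0.05 (limma), 4 of the 7 were higher. Cd5, the graded sensor of self-reactivity, averaged 193, 318 and 592 TPM in GFPlo, GFPmed and GFPhi, with a position of 0.448.

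The other 4 surface members were Selp, Bcam, Igf2r and Gpr155. Selp, the adhesion molecule P-selectin, averaged 1.902, 1.78 and 7.39 TPM in GFPlo, GFPmed and GFPhi. Bcam, a laminin receptor, averaged 1.597, 1.59 and 5.799. Igf2r, which carries lysosomal enzymes and takes up IGF2, averaged 25.5, 26.8 and 66.3, and Gpr155, a lysosomal membrane protein, 2.11, 2.35 and 5.53. Igf2r was the best measured of these, with at least 3592 reads in each GFPhi sample.

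The 3 ion channel genes of the set started from low levels. Kcnf1, a silent subunit of voltage-gated potassium channels, measured 0.479, 0.384 and 0.698 TPM in GFPlo, 0.831, 0.403 and 0.637 in GFPmed and 2.78, 10.8 and 7.97 in GFPhi. Trpm1, a cation channel best known from retina and melanocytes, measured 0.974, 1.003 and 0.611 TPM in GFPlo, 1.09, 1.02 and 0.846 in GFPmed and 6.61, 9.36 and 8.16 in GFPhi. Kcnip2, a subunit that modulates Kv4 channels, averaged 1.92, 2.602 and 10.4 TPM in GFPlo, GFPmed and GFPhi. In Kcnf1, GFPhi replicate 2 was 3.88 times replicate 1, and Trpm1 and Kcnip2 were also highest in replicate 2.

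Another 13 members encode signalling proteins. Pdzk1ip1, a small membrane protein that binds PDZ domains, measured 1.398, 1.12 and 0.698 TPM in GFPlo, 1.35, 2.02 and 1.79 in GFPmed and 8.32, 9.95 and 7.48 in GFPhi. Rem2, a GTPase that restrains calcium channels, measured 0.276, 0.665 and 0 TPM in GFPlo, 0.719, 0.932 and 0.276 in GFPmed and 4.98, 6.49 and 3.67 in GFPhi. Cyth3, an exchange factor for ARF GTPases that binds phosphoinositides, measured 2.62, 2.97 and 2.81 TPM in GFPlo, 2.703, 2.9996 and 3.37 in GFPmed and 15.5, 15.7 and 17.7 in GFPhi. The GFPlo and GFPmed samples of Cyth3 lay between 2.62 and 3.37 TPM, and its GFPhi samples between 15.5 and 17.7. Its paralog Cyth4 also rose, with a log2 difference of 3.69 (limma adjusted p = 2.44e-05), but from 6.94 ± 1.3002 through 17.3 ± 0.697 to 101 ± 10.6 TPM, and limma also called it higher in GFPmed than in GFPlo. Cyth1 and Cyth2 had differences of 0.56 (adjusted p = 0.0299) and 0.12 (0.678).

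Negative regulators of receptor signalling were among them. Cblb, a ubiquitin ligase that raises the threshold of T-cell activation, measured 4.73, 4.201 and 3.95 TPM in GFPlo, 5.79, 4.83 and 4.94 in GFPmed and 9.82, 10.8 and 11.9 in GFPhi. Inppl1, the lipid phosphatase SHIP2, measured 3.28, 2.28 and 3.34 TPM in GFPlo, 4.66, 4.23 and 2.398 in GFPmed and 12.8, 12.6 and 11.8 in GFPhi. In Cblb the GFPmed samples already lay above GFPlo, and in Inppl1 they overlapped it. Cbl had a log2 difference of -0.30 (limma adjusted p = 0.385), and Inpp5d, which encodes SHIP1, one of 0.27 (0.231), and neither was called. Irak2, a kinase-like protein of interleukin-1 and Toll-like receptor signalling, measured 3.25, 1.89 and 1.78 TPM in GFPlo, 3.51, 2.999 and 2.69 in GFPmed and 8.95, 10.9 and 10.98 in GFPhi. Its relatives Irak1 and Irak4 had differences of 0.21 and 0.53 and were not called (adjusted p = 0.27 and 0.212).

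Castor1, which senses arginine for mTORC1, measured 8.04, 8.65 and 4.63 TPM in GFPlo, 11.03, 5.39 and 10.4 in GFPmed and 20.2, 25.1 and 20.7 in GFPhi. Of 4 other arginine and leucine sensors 0 were called by limma, with 2 higher at an unadjusted p under 0.05, and Sesn3 reached 0.88 on the log2 scale (limma adjusted p = 0.0299). Ndrg3, a member of the NDRG family, measured 17.6, 19.8 and 16.7 TPM in GFPlo, 22.2, 22.4 and 23.6 in GFPmed and 53.6, 61.9 and 58.4 in GFPhi. It rested on 3614 to 4197 reads in the GFPhi samples, and every GFPmed sample was above every GFPlo sample. Ndrg1 and Ndrg2 had differences of -0.44 and 0.31 (adjusted p = 0.146 and 0.361). The other signalling members had group means of 1.05, 1.53 and 5.702 TPM for Gsap, the gamma-secretase activating protein, 6.47, 7.45 and 22.9 for Swap70, 39.9, 47.4 and 108 for Rasl11b, 18.6, 20.8 and 46.3 for Hap1 and 5.13, 5.47 and 12.7 for Mtmr10, in the order GFPlo, GFPmed and GFPhi. Swap70 is a phosphoinositide-binding protein of the actin cortex, and Rasl11b is a small GTPase of the Ras family.

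A further 11 members regulate transcription or chromatin, shown by sample in the plot of regulators. Myb, a factor of progenitors and of early T-cell development, measured 8.72, 7.67 and 8.23 TPM in GFPlo, 9.63, 8.79 and 10.5 in GFPmed and 30.9, 39.7 and 35.6 in GFPhi. Gfi1, a zinc finger repressor of thymocytes, measured 8.25, 10.01 and 12.1 TPM in GFPlo, 13.9, 8.39 and 8.43 in GFPmed and 33.01, 35.4 and 44.1 in GFPhi. Tgif1, a homeodomain corepressor of TGF-beta and retinoid signalling, measured 11.9, 10.4 and 10.4 TPM in GFPlo, 13.3, 13.3 and 15.7 in GFPmed and 35.96, 43.3 and 41.4 in GFPhi. In Myb and Tgif1 every GFPmed sample lay above the GFPlo samples by a small step, in Gfi1 these groups overlapped, and in all 3 genes the GFPhi samples lay well above both. Mybl2 had a log2 difference of 0.53 (limma adjusted p = 0.286), and Mybl1 and Gfi1b were too low to be tested.

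**Figure D3:**
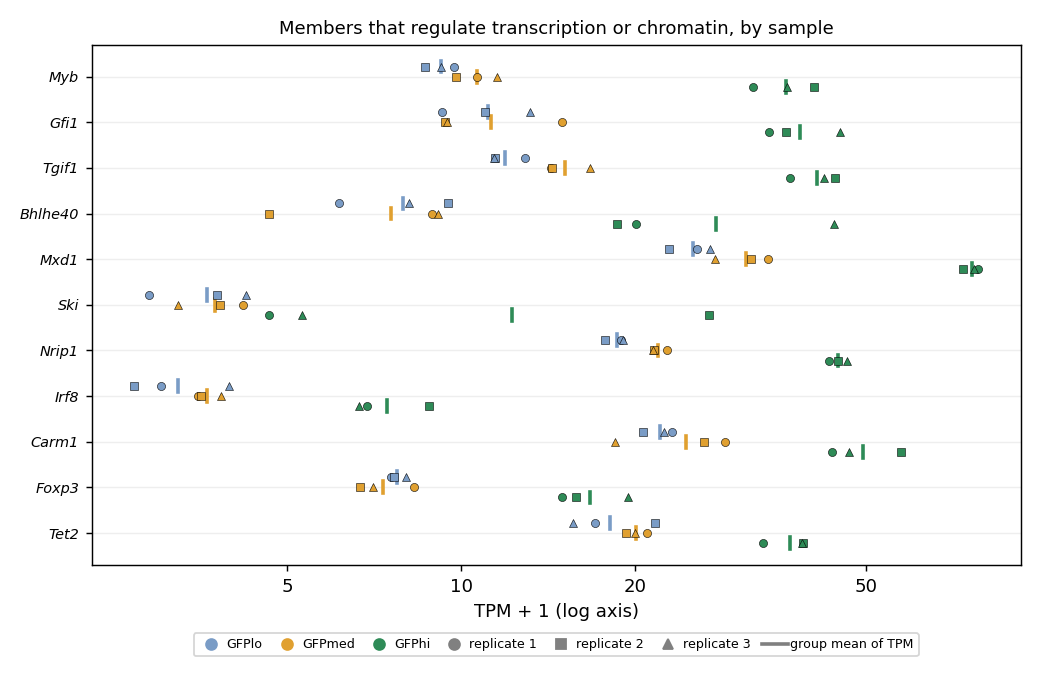
TPM + 1 (horizontal log axis) of the 11 members that regulate transcription or chromatin, in each of the 9 samples, with colours for GFPlo, GFPmed and GFPhi, symbols for replicates 1 to 3 and short bars for the group means of TPM plus 1. GFPhi points lie to the right in every row; in Ski a single GFPhi sample, replicate 2 at 25.8 TPM, carries the group mean.

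Mxd1, a MAX partner that opposes MYC at E-boxes, measured 24.5, 21.9 and 25.9 TPM in GFPlo, 32.9, 30.7 and 26.5 in GFPmed and 77.3, 72.7 and 75.96 in GFPhi. Nrip1, a corepressor of nuclear receptors, measured 17.9, 16.7 and 18.03 TPM in GFPlo, 21.7, 20.5 and 20.4 in GFPmed and 42.3, 43.8 and 45.5 in GFPhi. These were the most even of the regulators, with GFPhi SDs of 2.36 and 1.62 TPM (n = 3), and in each the GFPmed samples exceeded the GFPlo samples by a small amount. In the MYC, MAX and MXD network 0 of 10 other genes tested were called by limma, with 1 higher at an unadjusted p under 0.05. Myc itself had a log2 difference of -0.26 (limma adjusted p = 0.328) and Mxd4 one of 0.34 (0.0225). Nrip2 had a difference of -0.14 (0.8).

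Bhlhe40, a basic helix-loop-helix repressor that governs cytokine production in T cells, measured 5.15, 8.49 and 7.11 TPM in GFPlo, 7.902, 3.65 and 8.12 in GFPmed and 19.05, 17.6 and 43.1 in GFPhi. Ski, a corepressor of SMAD proteins, measured 1.89, 2.78 and 3.24 TPM in GFPlo, 3.19, 2.83 and 2.23 in GFPmed and 3.66, 25.8 and 4.305 in GFPhi. In each of these a single GFPhi library stood apart: replicate 3 for Bhlhe40 and replicate 2 for Ski. Without GFPhi replicate 2 the log2 difference of Ski fell to 0.47, under the limit of the rule, and its other GFPhi values exceeded the highest GFPlo value by little. For Bhlhe40 the lowest difference with any sample left out was 1.31.

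Irf8, an interferon regulatory factor, measured 2.02, 1.72 and 2.96 TPM in GFPlo, 2.51, 2.55 and 2.85 in GFPmed and 5.87, 7.78 and 5.65 in GFPhi. Carm1, an arginine methyltransferase and coactivator, measured 22.1, 19.6 and 21.4 TPM in GFPlo, 27.6, 25.3 and 17.4 in GFPmed and 42.8, 56.7 and 45.9 in GFPhi. Tet2, a dioxygenase that oxidises 5-methylcytosine, measured 16.02, 20.6 and 14.6 TPM in GFPlo, 19.9, 18.3 and 18.95 in GFPmed and 32.2, 37.95 and 37.9 in GFPhi. In Irf8 and Tet2 the lower groups overlapped, as they did in Carm1, whose GFPmed samples spread from 17.4 to 27.6 TPM. Of their families, 0 of 8 other IRF genes, 0 of 7 other arginine methyltransferases tested and 0 of 2 other TET genes were called by limma, with 4, 0 and 1 higher at an unadjusted p under 0.05. Irf1 had a difference of 0.68 on the log2 scale (limma adjusted p = 0.00237), and Irf4, a target of receptor signals, averaged 17.8, 29.5 and 18.8 TPM in GFPlo, GFPmed and GFPhi. Tet1 and Prmt5 had differences of -0.77 (0.0569) and -0.67 (0.00237).

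Foxp3, the lineage factor of regulatory T cells, measured 6.57, 6.65 and 7.04 TPM in GFPlo, 7.27, 5.69 and 6.03 in GFPmed and 13.95, 14.8 and 18.4 in GFPhi. Its 6 lower samples lay between 5.69 and 7.27 TPM and its 3 higher ones between 14.0 and 18.4. The sort had removed CD25+ cells, and most established regulatory T cells carry CD25. How many regulatory T cells remained was not measured. Foxp3, Lrrc32 and Nt5e belong to a list of 24 regulatory T-cell markers. Of the 18 other markers tested, limma called 10 higher in GFPhi than in GFPlo and 0 lower, and the median difference of the 18 was 2.09. At an unadjusted p under 0.05 (limma), 15 of the 18 were higher. The other 21 markers summed to 798 to 857 TPM in GFPlo, 1275 to 1448 in GFPmed and 2472 to 2777 in GFPhi. The list's sum was higher in GFPmed than in GFPlo and higher again in GFPhi. Foxp3, Lrrc32 and Nt5e stayed near GFPlo in GFPmed by the rule, so nothing is read from that difference. The part of regulatory T cells in the levels of these members was not tested. Some of these markers can also be induced by receptor signals in other T cells. Bulk libraries cannot tell this apart from a share of regulatory T cells.

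The called markers took several courses. Tnfrsf9, the costimulatory receptor 4-1BB, averaged 2.17, 12.8 and 194 TPM in GFPlo, GFPmed and GFPhi, with a log2 difference of 5.96 (limma adjusted p = 6.59e-06). Tnfrsf4, or OX40, averaged 66.8, 218 and 718 (3.41, adjusted p = 7.74e-06), and Il2rb 5.74, 12.7 and 84.3 (3.65, adjusted p = 4.56e-05). limma called 3 of these markers higher already in GFPmed than in GFPlo. Il2ra, which encodes the sorted-out CD25, averaged 0.665, 1.75 and 9.73 (2.68, adjusted p = 0.000491). Ikzf4 averaged 6.53, 11.8 and 40.5 (2.46, adjusted p = 5.61e-05), and Ikzf2 1.55, 2.26 and 15.6 (2.698, adjusted p = 0.000236). Other markers had differences of 0.26 for Ccr8 (adjusted p = 0.258), 0.44 for Gpr83 (0.255) and -0.11 for Itgae (0.885), none of which was called.

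**Figure D4:**
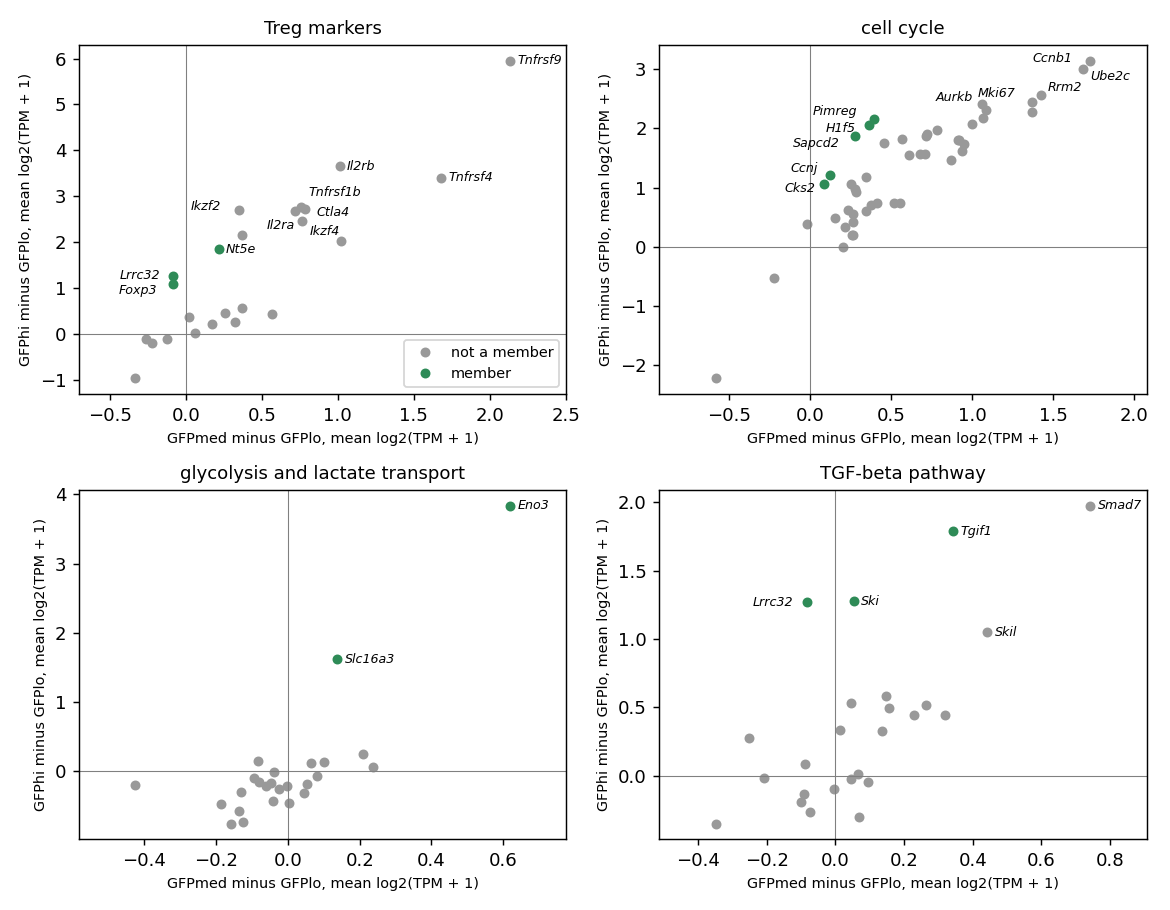
GFPhi minus GFPlo (vertical axis) against GFPmed minus GFPlo (horizontal axis), both as differences of mean log2(TPM + 1), for the genes of 4 lists, with members in green and other genes in grey. Green points lie high for their place on the horizontal axis, as the rule requires, and among glycolysis genes the grey points lie near 0 on the vertical axis, with Aldoa at -0.73.

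Lrrc32, Ski and Tgif1 also belong to a list of 25 TGF-beta pathway genes. Of 18 other genes tested, 2 were called higher in GFPhi than in GFPlo and 0 lower, with a median difference of 0.33. At an unadjusted p under 0.05 (limma), 8 of the 18 were higher. Smad7, the feedback inhibitor of the pathway, had a log2 difference of 1.98 (limma adjusted p = 0.00921), and Skil, the paralog of Ski, one of 1.05 (0.0049). Both averaged more in GFPmed than in GFPlo, at 2.28, 4.57 and 11.95 TPM for Smad7 and 49.5, 67.9 and 104 for Skil. Tgfb1, Tgfbr1 and Smad4 had differences of 0.49, -0.02 and -0.35 and were not called. Ski, Tgif1, Smad7 and Skil each encode a negative regulator of SMAD signalling. Ski and Tgif1 were chosen by the rule, and the mean of Ski was carried by a single GFPhi sample. The list was not split by direction of action, so nothing is read from what these genes share.

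In the set, 10 members belong to cell division, the cytoskeleton or the histones. Pimreg, a mitotic regulator of the metaphase to anaphase transition, measured 1.47, 2.12 and 3.34 TPM in GFPlo, 4.58, 2.72 and 2.64 in GFPmed and 6.94, 22.1 and 15.3 in GFPhi. H1f5, a linker histone made in S phase, measured 1.03, 3.303 and 3.597 TPM in GFPlo, 4.82, 2.601 and 3.08 in GFPmed and 10.9, 20.5 and 10.4 in GFPhi. Sapcd2, which orients the mitotic spindle, measured 1.81, 0.415 and 0.903 TPM in GFPlo, 2.15, 1.09 and 1.03 in GFPmed and 4.66, 7.905 and 6.45 in GFPhi. Cks2, the small subunit of cyclin-dependent kinases, measured 4.51, 4.29 and 6.52 TPM in GFPlo, 5.86, 4.86 and 5.48 in GFPmed and 9.02, 14.1 and 11.97 in GFPhi, and Ccnj, which encodes cyclin J, 5.13, 5.59 and 4.64 TPM in GFPlo, 6.601, 5.27 and 5.16 in GFPmed and 10.3, 14.6 and 14.9 in GFPhi. In Pimreg, H1f5, Sapcd2 and Cks2 the highest GFPhi library was replicate 2, and in Ccnj it was replicate 3, with replicate 2 close by.

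Many other genes of the cell cycle were also called. Of 42 other cell-cycle genes tested, limma called 23 higher in GFPhi than in GFPlo and 1 lower, with a median difference of 1.504. At an unadjusted p under 0.05 (limma), 38 of the 42 were higher. Their TPM summed to 1301 to 1386 in GFPlo, 1578 to 1849 in GFPmed and 1880 to 2408 in GFPhi. This sum was higher in GFPmed than in GFPlo. The members of this group stayed near GFPlo in GFPmed by the rule, so nothing is read from that difference. Between GFPhi and GFPmed, limma called 3 of the 42 higher in GFPhi and 1 lower. The part of cell division in the members' levels was not tested. Mki67, the proliferation marker, averaged 3.13, 9.87 and 21.6 TPM in GFPlo, GFPmed and GFPhi (2.45, limma adjusted p = 0.00209). Ccnb1 averaged 2.499, 9.87 and 27.96 (3.15, adjusted p = 0.00331) and Rrm2 22.4, 63.1 and 139.6 (2.57, adjusted p = 0.00113). These genes averaged well above GFPlo in GFPmed, although limma called 0 of the 42 higher in GFPmed than in GFPlo. Kif23, a kinesin of cytokinesis, was the exception in direction, falling from 104 ± 2.95 to 21.6 ± 3.27 TPM (-2.22, adjusted p = 0.000122). The replication genes Pcna and Mcm2 were near level, with differences of 0.19 and 0.00.

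H3c3, a histone H3 gene, measured 1.21, 0.974 and 0 TPM in GFPlo, 0, 0 and 2.42 in GFPmed and 5.28, 6.05 and 6.62 in GFPhi. It rested on 7 reads in each GFPhi sample. H2ac13 and H2bc12, also histones, averaged 2.79, 2.18 and 10.04 and 1.37, 0.7297 and 8.39 TPM in GFPlo, GFPmed and GFPhi, with at most 8 and 18 reads in a GFPhi sample. H2bc12 had 17.97 TPM in GFPhi replicate 1 and 3.43 and 3.76 in the other two. Histone genes are near-identical and lie in clusters, so the assignment of these few reads is uncertain. Tubb2b, a beta-tubulin, measured 14.7, 16.6 and 13.3 TPM in GFPlo, 13.9, 14.9 and 12.8 in GFPmed and 28.6, 37.6 and 30.2 in GFPhi, and Mapre2, which binds growing microtubule ends, 1.86, 2.03 and 2.22 TPM in GFPlo, 2.46, 2.74 and 2.73 in GFPmed and 6.24, 7.38 and 6.45 in GFPhi. Among 6 other beta-tubulins tested, Tubb3 was called higher (1.19, limma adjusted p = 0.0294) at a mean of 2.54 TPM in GFPhi, and Tubb2a, whose sequence is close to that of Tubb2b, had a difference of 0.72 (0.0117). Mapre1 and Mapre3 had differences of -0.03 and 0.16.

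Protein handling accounted for 4 members. Ubqln4, a shuttle of ubiquitinated proteins, measured 35.9, 42.3 and 38.7 TPM in GFPlo, 50.9, 43.6 and 39.97 in GFPmed and 67.8, 99.2 and 77.1 in GFPhi. Serp1, a component of the endoplasmic reticulum translocon that responds to unfolded protein, averaged 180.2, 199.5 and 421 TPM in GFPlo, GFPmed and GFPhi. Ctsw, the cysteine protease cathepsin W, averaged 168, 181 and 337, and Litaf, an endosomal membrane protein, 2.84, 3.46 and 7.68. Serp1 and Ctsw were the most abundant members per exonic length, at 96.6 and 76.1 exonic RPKM in GFPhi. Ubqln1 and Ubqln2 had log2 differences of -0.23 and -0.11 (limma adjusted p = 0.286 and 0.92).

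Trgc2 and Trgv4 are segments of the T-cell receptor gamma locus. Trgc2 measured 1.58, 0.211 and 1.38 TPM in GFPlo, 0.274, 0.222 and 1.31 in GFPmed and 6.06, 7.496 and 3.49 in GFPhi, on 17 to 40 reads in a GFPhi sample. Trgv4 averaged 2.46, 3.06 and 7.71 TPM in GFPlo, GFPmed and GFPhi, on 7 or 8 reads. Gamma segments are similar in sequence, and reads can be split between them. Of 7 other markers of gamma delta T cells tested, 0 were called higher and 1, Sox13, lower (-1.88, limma adjusted p = 0.0135). The 9 other markers summed to 48.9 to 51.0 TPM in GFPlo, 39.2 to 47.8 in GFPmed and 34.1 to 44.5 in GFPhi. Trdc, the delta constant segment, averaged 15.1, 13.004 and 16.9, and Trgc1 6.602, 7.32 and 7.64.

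Another 4 members are noncoding. Mir3074-2 (GRCm38 chr8:84208825-84208907) measured 0, 7.39 and 8.05 TPM in GFPlo, 4.79, 0 and 9.19 in GFPmed and 28.6, 13.1 and 21.6 in GFPhi, and Mir762 (chr7:127708487-127708562) averaged 82.9, 78.6 and 168 in the same group order. These rows count fragments of longer RNA over a microRNA hairpin, since libraries of this kind do not capture mature microRNAs. Mir3074-2 rested on 2 to 5 reads in a GFPhi sample and Mir762 on 22 to 26. Bambi-ps1, a pseudogene, measured 9.04, 15.5 and 5.64 TPM in GFPlo, 19.5, 6.53 and 12.9 in GFPmed and 39.3, 46.9 and 39.3 in GFPhi. Its parent gene Bambi had a log2 difference of -0.31 (limma adjusted p = 0.744) and was not called. Mirt1, a long noncoding RNA, averaged 9.105, 9.69 and 19.3.

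The library kit does not mark strand, and 33 of the 75 members overlap another gene of the table, 27 of them one on the opposite strand, so their reads cannot be told apart by strand. For 23 members a gene within 100000 bases also met the first 3 limits. The same counts were not made over all genes, so nothing is read from them. At Trpm1 an unnamed opposite-strand locus, Gm44722, measured 15.8, 18.3 and 7.66 TPM in GFPlo, 16.4, 14.8 and 24.5 in GFPmed and 88.3, 134 and 135 in GFPhi. Mtmr10, the next gene, lies 17878 bases away and is a member too. Swap70 overlaps the opposite-strand locus Gm45515, which measured 16.7, 21.3 and 15.3 TPM in GFPlo, 18.2, 18.4 and 14.9 in GFPmed and 50.8, 65.1 and 50.3 in GFPhi. Fdx1 lies 89450 bases from Arhgap20, a gene of the same course with a log2 difference of 4.77. Bambi-ps1 and Slc28a2b, both members, lie 17415 bases apart. Other neighbours had a position above the limit: Myb overlaps the opposite-strand Gm26577, which had a position of 0.340, and Bcam lies 37446 bases from Bcl3, which had one of 0.413.

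Markers of other cell types were examined in the same fit. limma called 0 of 9 B-cell markers tested, 0 of 9 myeloid and dendritic-cell markers and 0 of 8 platelet, endothelial and red-cell markers, with 0, 0 and 1 higher at an unadjusted p under 0.05. Among markers of natural killer T and innate-like T cells 1 of 10 tested was called higher, Slamf6 (1.63, limma adjusted p = 0.000462), and Zbtb16 stayed under 0.15 TPM on average in each group. Among thymic epithelial markers 1 of 5 was called higher, Epcam (1.38, adjusted p = 0.012), with 3 of the 8 under 1 TPM in every GFPhi sample. Markers of double-positive and early thymocytes had 1 of 9 called lower, Dntt (-1.43, adjusted p = 0.0026), and those of SP8 and NK cells 1 of 9, Cd8a (-1.12, adjusted p = 0.0158). The B-cell list summed to 241 to 256 TPM in GFPlo, 191 to 257 in GFPmed and 134 to 198 in GFPhi, and the myeloid list to 94.7 to 109, 90.15 to 106 and 101 to 103. The natural killer T list summed to 339 to 371, 382 to 390.2 and 378 to 539 TPM in the same group order, the double-positive list to 313 to 339.7, 343 to 354 and 328 to 478, and the SP8 and NK list to 84.3 to 93.6, 81.1 to 92.3 and 68.0 to 93.9. The thymic epithelial list summed to 14.8 to 23.4, 17.7 to 20.03 and 18.8 to 24.4, and the platelet, endothelial and red-cell list to 42.2 to 63.8, 52.2 to 57.9 and 46.4 to 62.1. Of all these lists, 0 marker genes were at 0 in all 3 GFPhi samples. The part of other cell types in the members' levels was not tested.

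Because the rule used all 9 samples, the form of the set was also read in samples that had not chosen it. The rule was applied to 2 replicate numbers at a time and the genes were then read in the third, as the plot of left-out replicates shows. It chose 108, 76 and 75 genes when replicate 1, 2 or 3 was left out, of which 62, 48 and 54 are among the 75 members. In the left-out replicate GFPhi exceeded GFPmed in 94, 58 and 68 of the 108, 76 and 75 genes. For positions from 0.2 to under 0.5 it did so in 186 of 204, 145 of 159 and 159 of 166. Those were larger shares in each reading, so a high count is not particular to positions under 0.2. For positions of 0.5 or more the counts were 48 of 86, 82 of 127 and 65 of 87, smaller shares in each. For the 108, 76 and 75 genes the left-out median of GFPmed minus GFPlo was 0.27, 0.07 and 0.24 on the log2(TPM + 1) scale. Their left-out median of GFPhi minus GFPmed was 0.86, 1.26 and 1.29. For genes chosen with a position from 0.2 to under 0.5 the left-out medians of GFPmed minus GFPlo were 0.55, 0.43 and 0.45, higher in each of the 3 readings, and those of GFPhi minus GFPmed were 0.65, 1.07 and 1.02, lower in each. The position of a single gene often did not recur. Of the 108, 76 and 75 genes, 40, 36 and 38 again had a position under 0.2 in the left-out replicate, with GFPhi above GFPlo. Where GFPhi exceeded GFPlo, the median left-out position of the chosen genes was 0.239, 0.113 and 0.161. It was thus above the limit of 0.2 with replicate 1 left out. Among genes chosen at any position, these genes included, 85 of 398, 96 of 362 and 94 of 328 had a position under 0.2. With 1 sample per group in each reading there is no test, and the sources do not tie the replicate numbers to an animal.

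**Figure D5:**
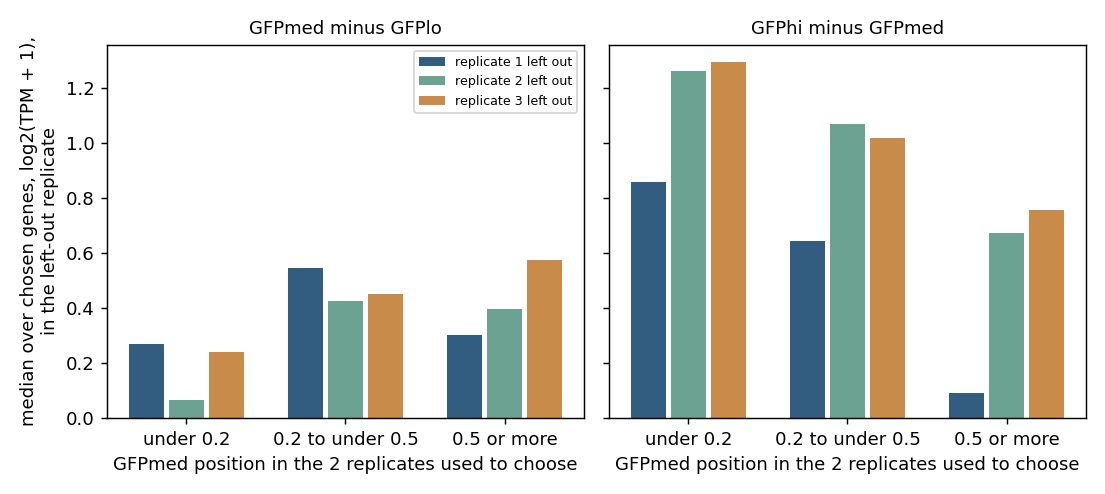
Median difference in the left-out replicate (vertical axis, log2(TPM + 1)) of genes chosen by the rule in the other 2 replicates, split by their position there (horizontal axis), for GFPmed minus GFPlo (left) and GFPhi minus GFPmed (right); bars are medians over genes, one for each replicate left out. Genes chosen with a position under 0.2 had the lowest bars on the left (0.27, 0.07 and 0.24) and the highest on the right (0.86, 1.26 and 1.29).

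Within the GFPhi group the members did not vary alike. The ratio of the highest to the lowest GFPhi sample had a median of 1.29 and exceeded 2 in 7 members. Replicate 2 was the highest GFPhi sample for 43 members, replicate 3 for 22 and replicate 1 for 10, whereas over all genes tested the shares were 27.5%, 25.7% and 46.2%. By role, replicate 2 was highest for 9 of 13 metabolic, 6 of 11 regulatory and 6 of 10 cell-division members, and for 5 of 15 surface members, of which 7 were highest in replicate 3. Leaving out GFPhi replicate 2 left 60 of the 75 members in the set, and leaving out replicate 1 or 3 left 72 or 69. In all, 9 members had fewer than 20 reads in a GFPhi sample and 7 had 0 reads in a GFPlo sample.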

How the data were processed

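Bulk RNA-seq was measured in 9 samples. Per the labels and the study's methods, libraries were made with SMART-seq v4 and Nextera XT, which does not mark strand. The authors trimmed reads, aligned them to GRCm38/mm10 with STAR 2.7.11b, dropped reads that were exact duplicates, took gene counts from STAR and deposited TPM per sample, the unit analysed here. The TPM divisor was the mean transcript span, introns included, so levels of single genes are compared with each other only as exonic RPKM (recovered reads per kb of exon, scaled to depth). Sums of TPM over a marker list weight its genes unequally and are compared only between samples. The same deposited table holds the authors' group means of normalized counts, a signal per group that served here only to recover reads. It also holds the log2 fold changes, adjusted p-values and call flags of the authors' DESeq2 1.34.0 comparisons, which were not used. The number of sample columns not used was 0.

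The members and gene lists were chosen with earlier results of these data known. Whole reads were recovered from TPM and the group means for 41578 genes (tolerance 0.02) and gave the depth of each library, which bears on precision: read counts without molecular identifiers cover counting error only. Means and tests used log2(TPM + 1), which understates changes of low genes. limma 3.58.1 in R 4.3.3 fitted all 3 groups without a block over 30693 genes, with Benjamini-Hochberg adjustment over all of them, and a call needed an adjusted p of at most 0.05 and a log2 change of at least 1. The fit was tested on simulated data. By the rule for named genes, every member may be named; values in every sample are given for the 20 members with the largest difference, members in a gene list, members that regulate transcription or chromatin, and the 3 genes nearest to the position limit on each side. Other genes are named from the lists that hold a member or mark a cell type, and a few neighbours, families and reporter genes were chosen after their values were seen. Alternatives covered the pseudocount, filters, scaling, the position limit, limma-voom on recovered reads, a replicate block and each sample left out.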

Additional observations from a re-analysis of the deposited data

How the results depend on the processing

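The size of the set depended on the position limit: 33 members at a limit of 0.1, 119 at 0.3 and 128 with the position on linear TPM, against 75. The other alternatives gave 50 to 93, and leaving out one sample 69 to 90, of which 58 to 72 were members. With a pseudocount of 0.1, the GFPhi minus GFPlo difference of 32 members moved by at least the fitted SD between replicates. With limma-voom on reads, that of 32 members did. Members called higher in GFPhi than in GFPmed fell from 46 to 22 with median-of-ratios scaling and to 29 when only those 2 groups were fitted; leaving out one sample gave 21 to 38, with 21 without GFPhi replicate 3, 29 without GFPhi replicate 2, and 27, 23 and 24 without GFPmed replicate 1, 2 and 3. The cause was not tested. With no fold limit, 74 list genes were called in place of 45. Epcam was not called without GFPhi replicate 3 (limma adjusted p = 0.0559), nor Cd8a with median-of-ratios scaling (0.147) or quantile normalization (0.122). The median of all genes moved from -0.09 to -0.02 and -0.01 under those 2 scalings, and the calls from 387 higher and 124 lower to 321 and 69 under the first. Same-numbered samples correlated by 0.012 to 0.225 in their deviations, and differently numbered samples by -0.185 to 0.148. Of the 9 samples, 6 correlated best with their own number, and whether the numbers pair the samples was not settled. With the replicate number as a block, 53 members were called higher in GFPhi than in GFPlo, 31 than in GFPmed and 0 between GFPmed and GFPlo, and 43 list genes were called, without Plk1 (limma adjusted p = 0.0993) and Tubb3 (0.0524). Low reads limit the histone, gamma-locus and microRNA rows.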

Other observations

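Another 53 genes met the same limits on level, difference, overlap and position and were left out of the set by their symbols. The 3 with the largest differences were Arhgap20 at 4.77 on the log2(TPM + 1) scale, Rln3, which encodes the peptide relaxin-3, at 3.95, and Rgs16, which shortens G-protein signals, at 3.60. Arhgap20 measured 1.21, 1.17 and 0.596 TPM in GFPlo, 2.18, 1.52 and 1.93 in GFPmed and 47.2, 58.2 and 53.4 in GFPhi. For Rln3 the values were 2.58, 1.48 and 1.29 TPM in GFPlo, 0.9602, 0.933 and 0.737 in GFPmed and 33.3, 51.7 and 40.9 in GFPhi. Rgs16 measured 3.58, 1.56 and 4.05 TPM in GFPlo, 3.26, 2.64 and 3.28 in GFPmed and 44.4, 51.96 and 43.3 in GFPhi. In each, GFPlo and GFPmed were within a few TPM of each other. Ikzf2, which encodes Helios, measured 1.62, 1.54 and 1.49 TPM in GFPlo, 2.25, 2.06 and 2.46 in GFPmed and 15.9, 14.3 and 16.5 in GFPhi, and Bcl6, the repressor that directs follicular helper T cells, 11.1, 8.57 and 8.302 TPM in GFPlo, 11.1, 9.496 and 10.1 in GFPmed and 32.9, 45.2 and 33.9 in GFPhi. Most of the others are unnamed loci, of which Gm44722 beside Trpm1 had the largest difference, 3.06. As with the members, these levels chose the genes and are given without a test.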
